A study of Caenorhabditis elegans with 3 samples.

Results

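The vulval induction pathway of Caenorhabditis elegans was examined here through 10 genes, of 19973 annotated protein-coding genes: lin-3, let-23, sem-5, let-60, lin-45, mek-2, mpk-1, lin-1, lin-31 and lin-39. They were chosen by name, as the epidermal growth factor (EGF), receptor, Ras and MAP kinase pathway with its vulval effectors. For each gene, the LIN-15B peaks with a summit between 2000 bp upstream of the gene start and the gene end were collected, and this stretch is called the gene window. Of the 10 genes, mpk-1 alone held a peak that all 3 replicates ranked reproducibly, in a long intron, against 7.75% of all protein-coding genes. None of the 10 held such a peak at a promoter, against 5.25% of all genes. Both counts are near the genome's shares, and no difference can be read from them.

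Chromatin immunoprecipitation followed by sequencing (ChIP-seq) recorded where LIN-15B lay on the genome. All samples were whole L1 larvae, pooled males and females, of the transgenic strain OP184 with the genotype unc-119(tm4063) III; wgIs184, in which wgIs184 is an insertion that carries lin-15B fused to eGFP. The labels give 1 group of 3 biological replicates and no untreated or control sample, so the members were set beside all protein-coding genes and the replicates beside each other. Replicates 1 and 2 came from the stock centre CGC, while for replicate 3 the laboratory itself is named as source, with a note of a GFP-FLAG tag at the C terminus. The antibody label names lin-15B alone, so whether the tag or the protein was bound is not settled. The signal comes from whole larvae, of which the cells that later form the vulva are a small part, and from the tagged transgene of a single strain.

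In vulval induction, the anchor cell of the gonad sends the EGF-like signal LIN-3 to the epidermal cells below it, which carry the receptor LET-23. The adaptor SEM-5 links the receptor to the Ras protein LET-60, and a chain of kinases carries the signal to transcription factors in the nucleus. This takes place in a later larval stage than L1. LIN-15B belongs to the class B of the synthetic multivulva (synMuv) genes: animals that lack a class A and a class B gene together make extra vulvae. The synMuv genes are known to hold down lin-3 in cells where it is not normally expressed. The peak lists show positions of LIN-15B on DNA and hold no measure of the genes' activity.

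The mpk-1 gene encodes the MAP kinase of the pathway, of the ERK type. It lies on chromosome III from 4216763 to 4228108 on the minus strand (WBGene00003401, build ce11). In the gene window the strongest peak ranked 786, 1860 and 1432 among the 30000 peaks of replicates 1, 2 and 3, with rank 1 the strongest, or 1359 ± 541 (SD, n = 3). In the series-wide list, which pools the alignments of the 3 replicates, it ranked 1052 and spanned 4223623 to 4223886 with the summit at 4223755. The summits of the 3 replicates lay 4377, 4239 and 4317 bp downstream of the gene start, within 138 bp of each other. Reproducibility was measured by the irreproducible discovery rate (IDR), the share of irreproducible peaks that a model of paired ranks estimates among the peaks down to a given one, and a peak with an IDR of 0.05 or less in all 3 pairs of replicates is called consistent. The mpk-1 peak had an IDR of 0.0349 for replicates 1 and 2, 0.00946 for replicates 1 and 3 and 0.00863 for replicates 2 and 3. At a threshold of 0.01, or with summits required to lie within 100 bp, it was no longer consistent. Leaving out 1 replicate leaves 1 of the same 3 pairs, each fitted on its own, so a pass there adds nothing.

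The bases around the summit are shown for the 5 series-wide peaks of the pathway that a peak of every replicate overlapped, of 35 in all, because they are the sites where the replicates can be set beside each other. Each line gives the summit base with 50 bases to either side, on the plus strand of ce11, 5′ to 3′, and capitals mark the motif letters searched for on both strands. These are from chrIII:4223705-4223805 (mpk-1, intron), chrII:9206267-9206367 (let-23, intron), chrIV:11691529-11691629 (let-60, upstream), chrIV:6750469-6750569 (lin-45, upstream) and chrIV:6745355-6745455 (lin-45, exon). The sequences were read from the RefSeq genome WBcel235, the assembly called ce11.
mpk-1 intron: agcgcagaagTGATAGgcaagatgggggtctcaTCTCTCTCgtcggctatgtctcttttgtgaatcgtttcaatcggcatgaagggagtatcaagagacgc
let-23 intron: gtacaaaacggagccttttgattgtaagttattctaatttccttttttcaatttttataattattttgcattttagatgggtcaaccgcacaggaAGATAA
let-60 upstream: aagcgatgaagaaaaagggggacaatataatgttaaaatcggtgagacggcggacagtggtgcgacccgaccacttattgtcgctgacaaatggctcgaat
lin-45 upstream: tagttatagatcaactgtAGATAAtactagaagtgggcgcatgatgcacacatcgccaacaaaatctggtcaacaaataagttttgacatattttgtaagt
lin-45 exon: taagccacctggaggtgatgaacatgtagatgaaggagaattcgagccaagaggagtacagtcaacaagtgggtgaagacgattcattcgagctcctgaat
The mpk-1 window had a GC content of 49.5%, against 29.7% for let-23, 47.5% for let-60, 34.7% for lin-45 upstream and 46.5% for the lin-45 exon. It held GAGA letters, which are GAGAGA and stood here on the minus strand. It also held GATA-like letters, which are AGATAA or TGATAA, in both also with a final G. The let-23 and lin-45 upstream windows held GATA-like letters, and the other 2 windows held none of the letters searched.

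In GC content the mpk-1 window lay within the middle range of the consistent peaks, while most of the pathway's windows lay below that range. This did not set mpk-1 apart, since windows of peaks that were not consistent also lay there. Among them were those of lin-31 at series-wide rank 10569 (49.5%) and lin-1 at rank 2838 (47.5%). Over windows of the same length, the median GC content was 34.7% for the 35 series-wide peaks of the pathway genes, 47.5% for the 926 consistent peaks and 35.6% for all 30000 series-wide peaks. The quartiles of the consistent peaks were 42.6% and 52.5%, so the mpk-1 window, at 49.5%, lay between them. E2F-like letters, which begin with TT, go on with any pair of C or G and end in CGC, stood in 8.57% of the pathway's windows, 17.5% of the consistent windows and 4.01% of all windows. GAGA letters stood in 8.57%, 19.8% and 7.52%, in the same order, and GATA-like letters in 14.3%, 8.32% and 19.5%. CHR-like letters (TTTGAA, or with a C in place of the last T) stood in 37.1%, 29.3% and 33.9%, so they were common in each set. The median ratio of observed to expected CpG was 0.878, 1.37 and 0.962, and the mpk-1 window stood at 1.01 with 6 CpG.

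**Figure D1:**
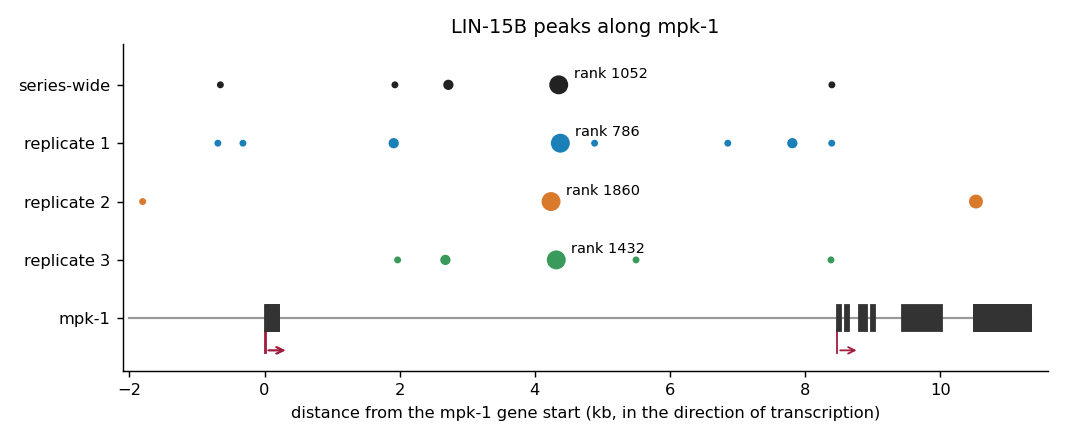
Listed LIN-15B peaks along mpk-1 by distance of the summit from the gene start in kb, for the series-wide list and the 3 replicates. Larger points are better ranks, black boxes are exons and arrows are transcript starts. The strongest peak of every list falls at the same place, near 4.35 kb, inside the long intron.

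The mpk-1 peak lay far from any protein-coding transcript start, the only kind of start examined. It sat in an intron of 8247 bp, from 4219644 to 4227890, which separates the transcripts F43C1.2a.1 and F43C1.2b.1, starting at 4228108 and 4228094, from the start of the short transcript F43C1.2a.2 at 4219643. The summit was 4353 bp downstream of the first start, 4339 bp downstream of the second and 4112 bp upstream of the third. Over the genome, the median distance of a consistent peak to the nearest protein-coding transcript start was 193 bp. In all, 81 of the 926 consistent peaks had their summit in an intron and 32 of these lay outside every promoter, taken as 500 bp upstream to 200 bp downstream of a transcript start. Among the 32, the mpk-1 peak was the farthest from a protein-coding start, and the next, near cest-16, lay 3302 bp away. By mean rank it was number 23 of those 32 and number 851 of all 926, so it was among the weaker of the consistent peaks.

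The rest of the mpk-1 window held weaker and scattered peaks. There were 8 listed peaks from replicate 1, 3 from replicate 2 and 5 from replicate 3. The next best ranks were 6328, 4127 and 6591 in the 3 replicates, at 1911, 10527 and 2676 bp downstream of the gene start. These second peaks lay at a different place in each replicate. A peak 70 bp upstream of the short transcript's start ranked 21543 in the series-wide list and was overlapped by peak 15209 of replicate 1 and peak 12574 of replicate 3, by rank, with an IDR of 0.567, so it did not pass. The deposited q score of the strong peak stood at 1.18, 2.53 and 2.98 in replicates 1, 2 and 3 and at 2.85 in the series-wide list. Among weak series-wide peaks the score did not rise with strength: it was -0.14 at rank 9609 (let-23) and -0.06 at rank 27798 (sem-5). The 2 consistent peaks nearest to it in mean rank were those near Y66D12A.7, at 1360 ± 806 (SD, n = 3), and near F35G12.7, at 1362 ± 828, both also on chromosome III, and both means lay well within the spread between replicates.

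Set against the whole genome, a consistent peak in the gene window was present in 1 of the 10 pathway genes and in 7.75% of all protein-coding genes (1548 of 19973). For promoters alone the counts were 0 of 10 and 5.25% (1048 genes). The windows of the 10 genes were long, with a median of 10019 bp, against 4027 bp over all genes, and their density of consistent peaks was 0.0938 per 10 kb, against 0.0923 per 10 kb of genome. A count of 1 in 10 is near the genome's share, and no difference can be read from it. The strongest peaks of the 3 replicates lay within 300 bp of each other in 1 of the 10 genes, again mpk-1, and in 11.9% of all genes.

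Each list holds 30000 peaks and, per the records deposited with it, background as well as peaks, so a listed peak alone says little. A listed peak of any rank was present in the windows of 9 of the 10 genes in the series-wide list (75.0% of all genes), 10 in replicate 1 (77.0%), 9 in replicate 2 (75.2%) and 10 in replicate 3 (68.7%). Without one were mek-2 in the series-wide list and sem-5 in replicate 2. In all 3 replicates at once, 9 of the 10 genes and 49.0% of all genes had one. The windows together held 35 series-wide peaks and 39, 27 and 38 peaks of replicates 1, 2 and 3. That is 3.28, 3.66, 2.53 and 3.56 peaks per 10 kb, against 2.99 per 10 kb of genome in each list, so per length the windows held more listed peaks than the genome in 3 lists and fewer in replicate 2.

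Stronger peaks were fewer. Among the 1000 strongest peaks of each list, the windows of 0 of the 10 genes held one in the series-wide list (8.58% of all genes), 2 in replicate 1 (7.83%), 0 in replicate 2 (8.29%) and 0 in replicate 3 (8.88%). Those of replicate 1 were let-23 and mpk-1. Among the 5000 strongest, the counts were 5 of 10 in the series-wide list (26.7%), 5 in replicate 1 (25.4%), 4 in replicate 2 (26.3%) and 4 in replicate 3 (26.1%). Only lin-45 and mpk-1 were among them in every replicate. The share of all genes with such a peak in every replicate was not computed, so nothing can be read from that count. The median best rank of the genes with a peak was 4701 in the series-wide list, against 8504 over all genes, and 5929, 6744 and 8774 in replicates 1, 2 and 3, against 8846, 8468 and 8141 over all genes. It was better than the genome's in the series-wide list and 2 replicates and worse in the third. The median window of the 10 genes was 10019 bp, against 4027 bp over all genes, and whether window length bears on the best rank was not tested.

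Counts by the q score and at promoters were set beside the same shares. A peak with a q score of 2 or more lay in the windows of 1 of the 10 genes in the series-wide list (11.8% of all genes), 0 in replicate 1 (4.78%), 3 in replicate 2 (19.1%) and 1 in replicate 3 (16.3%). For mpk-1 this held in the series-wide list and in replicates 2 and 3, and for let-60 and lin-39 in replicate 2. Listed peaks of any rank lay at a promoter of 6 of the 10 genes in the series-wide list (34.0%), 6 in replicate 1 (30.2%), 3 in replicate 2 (32.9%) and 3 in replicate 3 (33.7%). With several transcript starts a gene has more than 1 promoter, and the 10 genes had 2.8 distinct starts on average, against 1.47 over all genes. At lin-45 a promoter peak was listed in every replicate, but not at a single site. It lay 348 bp upstream of the gene start in replicate 1 and 694 bp downstream, at an internal transcript start, in replicate 3. Replicate 2 listed peaks near both starts, 175 bp upstream and 714 bp downstream of the gene start. The share of all genes with a promoter peak in every replicate was not computed.

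**Figure D2:**
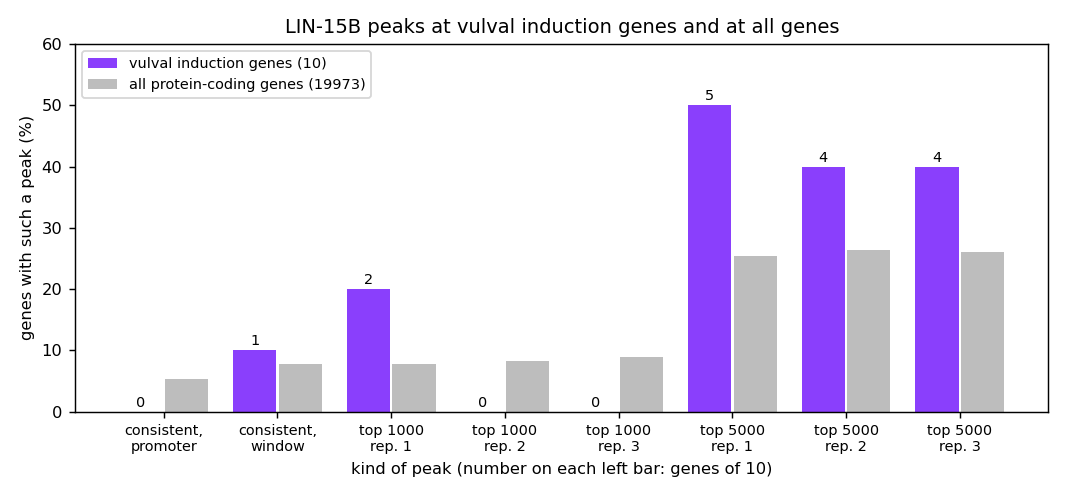
Percent of the 10 vulval induction genes (left bars, with the number of genes) and of all 19973 protein-coding genes (right bars) that held a consistent peak in the promoter or gene window, or a peak among the 1000 or 5000 strongest of a replicate. The counts of 1 and 0 for consistent peaks stand beside 7.75% and 5.25% of all genes.

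The 10 genes were ordered by the mean rank of their strongest peak over the replicates. The order was mpk-1 (1359 ± 541), lin-45 (2992 ± 1538), let-60 (6232 ± 7341), lin-1 (6847 ± 3192), mek-2 (10277 ± 3532), lin-39 (10636 ± 7025), lin-31 (10743 ± 5915), let-23 (10863 ± 11398), lin-3 (13770 ± 13813) and sem-5 (19714 ± 4440), each with its SD over 3 replicates but sem-5 with 2. The means of mpk-1 and lin-45 differed by more than either SD, although the worst rank of mpk-1 (1860, replicate 2) was past the best of lin-45 (1825, replicate 1). From lin-45 on, each mean lay within the larger SD of itself and its neighbour, so these neighbours did not differ beyond their spread.

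**Figure D3:**
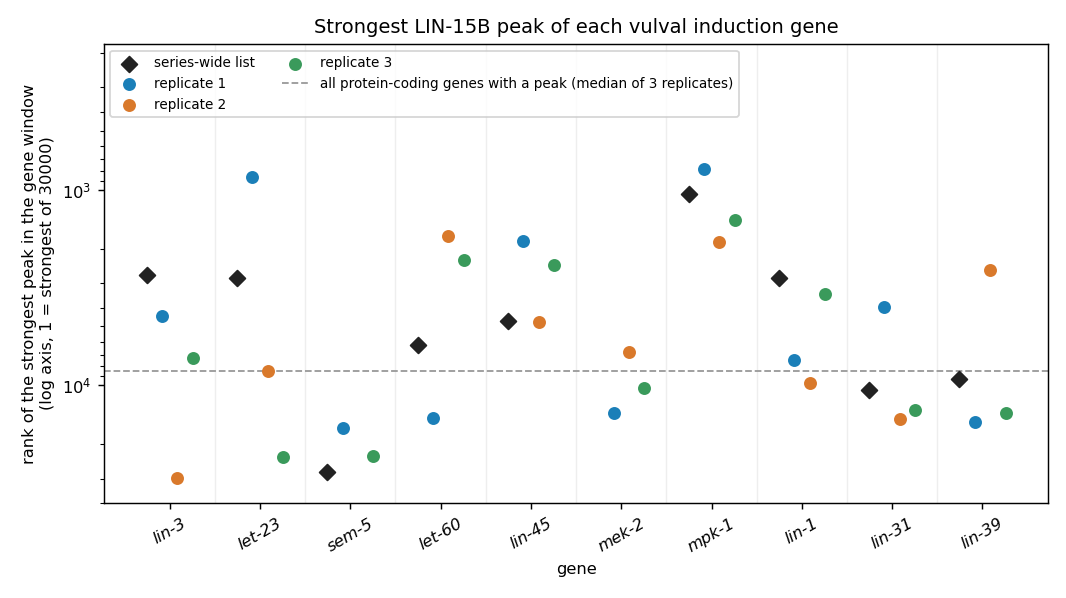
Rank of the strongest LIN-15B peak in each gene window (log axis, 1 is the strongest of 30000) in the series-wide list (diamonds) and the 3 replicates (circles), with the median over all genes with a peak as a dashed line. The 3 replicates of mpk-1 sit together between 786 and 1860, while those of lin-3 span 4408 to 29634 and those of let-23 span 860 to 23271.

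The lin-3 gene encodes the EGF-like ligand and lies on chromosome IV from 11054308 to 11063768 (WBGene00002992, plus strand). Its strongest peak ranked 4408, 29634 and 7268 in replicates 1, 2 and 3, and 2714 in the series-wide list. Replicates 1 and 2 had it in an intron, 1589 and 1624 bp downstream of the gene start, and replicate 3 had it 8929 bp downstream, in an exon near the gene end. The site near the gene end was the stronger one in the series-wide list (8943 bp), where it was overlapped by peak 6698 of replicate 1 and peak 7268 of replicate 3, by rank, with an IDR of 0.295. The nearest protein-coding start to this site was that of ttr-16, 886 bp away. The intron site had an IDR of 0.821 for replicates 1 and 2, so neither passed. Its series-wide window, with a GC content of 42.6%, held E2F-like letters. At the promoter of lin-3, 207 bp upstream of the gene start, replicate 3 listed a peak of rank 23699, and another of rank 29939 lay 28 bp downstream of the start. No other list had a peak upstream of lin-3. The nearest consistent peak was 65.0 kb from the lin-3 start, near enpl-1.

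The let-23 gene encodes the EGF receptor and lies on chromosome II from 9197512 to 9207213 (WBGene00002299, plus strand). The best ranks were 860, 8457 and 23271 in replicates 1, 2 and 3. The replicates agree on a place but not on a strength: the series-wide peak in an intron near the gene end, 8805 bp from the gene start, was overlapped by peaks of rank 860, 25452 and 23271 in replicates 1, 2 and 3. Its IDR was 0.82, 0.81 and 0.543 for replicates 1 and 2, 1 and 3, and 2 and 3. It is therefore a peak of 1 replicate that was near the bottom of both other lists. The protein-coding start nearest to its series-wide summit was that of ZK1067.4, 4059 bp away. Replicate 2 had its own strongest peak 1150 bp upstream of the gene, with no match. The nearest consistent peak was 135 kb away.

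The sem-5 gene encodes the adaptor with SH2 and SH3 domains that joins receptor and Ras, and it lies on chromosome X from 7959453 to 7961723 (WBGene00004774, minus strand). By mean best rank over the replicates it came last of the 10 genes. Its best rank was 16574 in replicate 1 and 22853 in replicate 3, replicate 2 listed none, and the series-wide list had 1 peak of rank 27798, 619 bp upstream of the gene. The window was also the shortest of the 10, at 4271 bp. The nearest consistent peak was 74.7 kb away, near xol-1.

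The let-60 gene encodes the Ras protein and lies on chromosome IV from 11688227 to 11691088 (WBGene00002335, minus strand). Its strongest peak was upstream of the gene in every list, with ranks of 14703, 1720 and 2274 in replicates 1, 2 and 3. Those of replicates 2 and 3 had q scores of 2.5 and 1.87 but lay at different places, 1504 and 1173 bp upstream of the gene start, and the one of replicate 1 lay 476 bp upstream. The peak of replicate 2 was nearer to the start of ZK792.12, at 1201 bp, than to that of let-60. The site at the promoter, 491 bp upstream in the series-wide list (rank 13698), was overlapped by peaks of rank 14703, 5767 and 18384 in replicates 1, 2 and 3. Its IDR was 0.589, 0.635 and 0.484 for the 3 pairs, so it did not pass in any. The nearest consistent peak was 96.7 kb away.

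The lin-45 gene encodes the Raf kinase, which Ras activates, and it lies on chromosome IV from 6742537 to 6748572 (WBGene00003030, minus strand). Its strongest peak ranked 1825, 4735 and 2415 in replicates 1, 2 and 3. Replicates 1 and 2 had it 2000 and 1890 bp upstream of the gene, where the peak of replicate 3 ranked 27333, and the IDR was 0.222 for replicates 1 and 2, 0.814 for replicates 1 and 3 and 0.639 for replicates 2 and 3. Replicate 3 had it 694 bp downstream of the gene start, close to an internal transcript start. There the series-wide summit lay 22 bp upstream of the start of Y73B6A.5d.1, overlapped by a peak of rank 6336 from replicate 2 and one of rank 2415 from replicate 3, with no match in replicate 1. Its IDR of 0.104 was the lowest in the pathway outside mpk-1, and its window held both E2F-like and CHR-like letters with a GC content of 41.6%. All 5 series-wide peaks of lin-45 were matched in at least 1 pair of replicates and none passed.

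The mek-2 gene encodes the kinase that activates the MAP kinase, and it lies on chromosome I from 3005403 to 3013448 (WBGene00003186, minus strand). Its strongest peak ranked 13808, 6744 and 10279 in replicates 1, 2 and 3, all inside the gene, 5661, 4137 and 6746 bp downstream of its start. The series-wide list had no peak in its window, and no replicate listed one upstream. The start nearest to each strongest peak was a neighbour's, that of col-48 in replicates 1 and 2 and of Y54E10BL.3 in replicate 3. Of the 3 kinase genes, mek-2 had the fewest listed peaks, 4 over the 3 replicates, against 15 for lin-45 and 16 for mpk-1. The nearest consistent peak was 17.1 kb away, near dnj-28.

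The lin-1 gene encodes an ETS-type transcription factor that holds back vulval fates until the MAP kinase acts on it. It is the longest of the 10 genes, at 24426 bp, on chromosome IV from 2275861 to 2300286 (WBGene00002990, minus strand). Ranks of the strongest peak were 7450, 9694 and 3396 in replicates 1, 2 and 3, all in introns, 6763, 529 and 21478 bp downstream of the gene start. These lie up to 20949 bp apart. The site at 6763 bp held peak 7450 of replicate 1 and peak 8553 of replicate 3, by rank, with an IDR of 0.348. The series-wide list placed its strongest peak, of rank 2838, at yet another point, 18548 bp from the start, with a match in replicate 1 alone.

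The lin-31 gene encodes a forkhead transcription factor that the MAP kinase phosphorylates, and it lies on chromosome II from 3982549 to 3987029 (WBGene00003017, plus strand). Its strongest peak ranked 3975, 14923 and 13331 in replicates 1, 2 and 3, at 1562 bp upstream, 4161 bp downstream and 1238 bp upstream of the gene start. The peak of replicate 2 was nearest to the start of K10G6.5, 540 bp away. None of the 4 series-wide peaks of lin-31 was matched by more than 1 replicate, so no IDR could be fitted. The lin-39 gene encodes the Hox protein that keeps vulval precursor cells competent and is itself raised by the pathway. It lies on chromosome III from 7528641 to 7536632 (WBGene00003024, minus strand), and its strongest peak ranked 15445, 2575 and 13889 in replicates 1, 2 and 3. Replicate 2 stood apart at lin-39 with 7 listed peaks, among them ranks 2575 and 2617 with q scores of 2.19 and 2.17, while replicates 1 and 3 listed 3 and 1. Near the internal start of C07H6.7.2, 87 bp upstream of it, the series-wide peak matched peak 15445 of replicate 1 and peak 5808 of replicate 2, by rank, with an IDR of 0.612. Its window was the richest in GC of the pathway's, at 53.5%, and held none of the motif letters. The nearest consistent peak to lin-39 was 15.8 kb away, near cux-7, with a series-wide rank of 76.

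**Figure D4:**
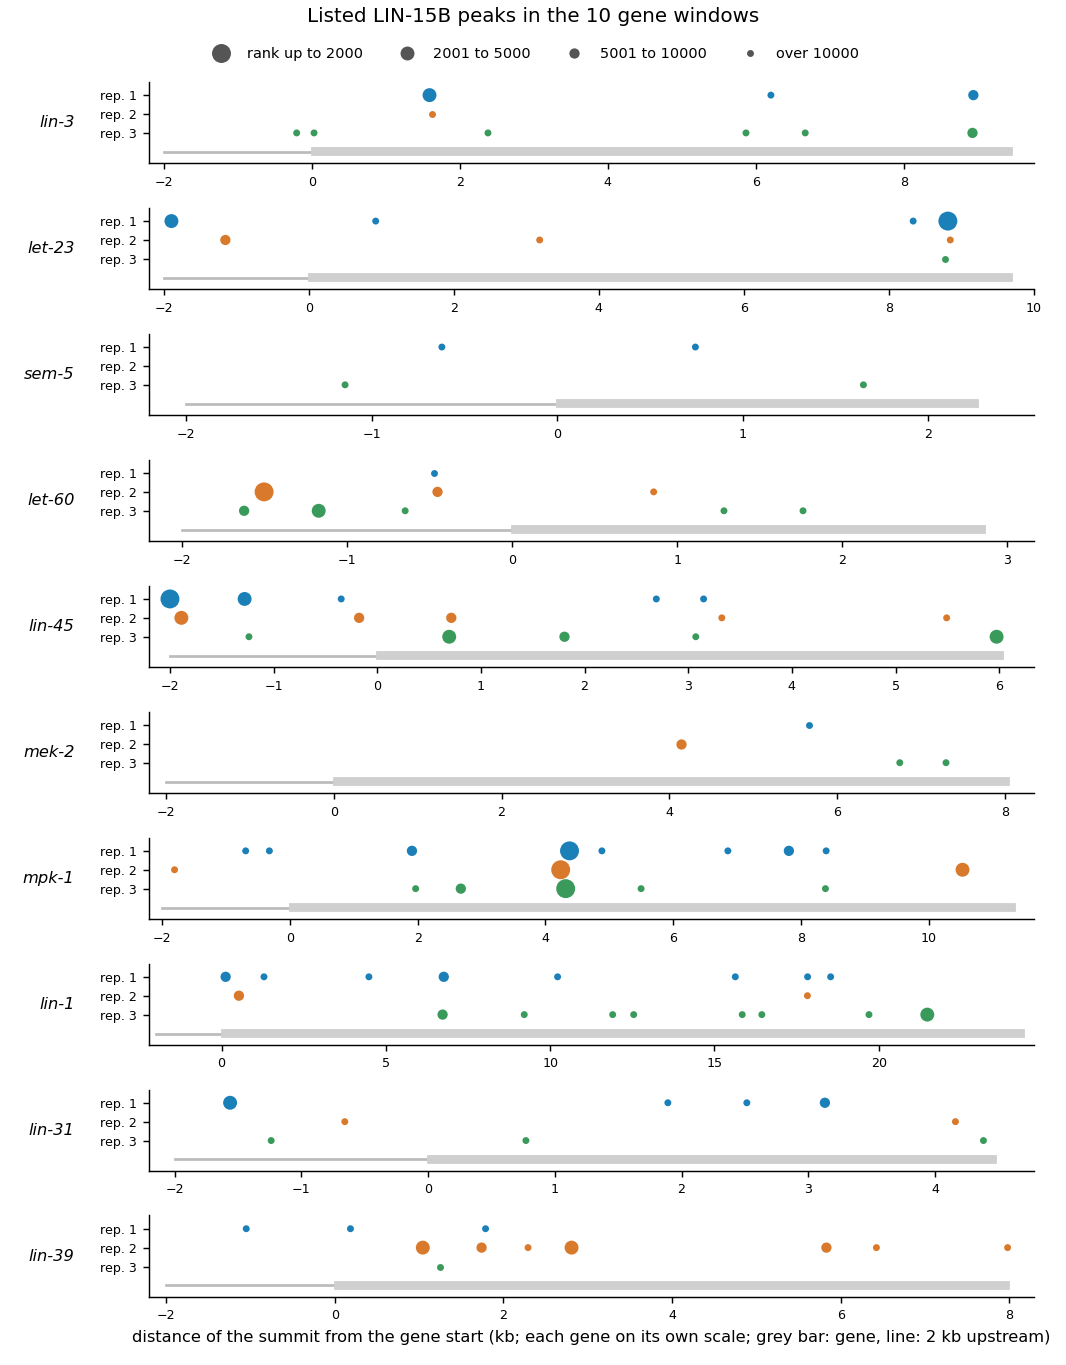
Every listed peak of the 3 replicates in the windows of the 10 genes, by distance of the summit from the gene start in kb, with larger points for better ranks. The large points of the 3 replicates line up at mpk-1, at 4377, 4239 and 4317 bp, and in none of the other genes do the strongest points of all 3 replicates line up.

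Over the 10 genes, 17 of the 35 series-wide peaks were matched in at least 1 pair of replicates and 1 passed in a pair, the one of mpk-1. Over the whole list, 13000 peaks were matched in a pair and 2006 (15.4%) passed in at least 1. Peaks of all 3 replicates overlapped 14.3% of the pathway's series-wide peaks and 11.1% of all, and no replicate overlapped 2.86% and 8.77%. In the series-wide list 20 of the pathway's peaks lay in introns, 10 upstream and 5 in exons. The median distance from the gene start to the nearest consistent peak was 63.5 kb for the pathway genes, against 41.6 kb over all genes. It was under 10 kb at mpk-1 and at lin-45, where the consistent peak, 8.04 kb upstream, lay near usp-4.

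Other genes of vulval development came from 5 lists, of which 70 of 71 names matched the annotation (not lst-3). A consistent peak lay in the window of 9 of the 70 (12.9%, against 7.75% of all genes), with a median window of 7442 bp, against 4027 bp over all genes. It lay at the promoter of 5 of the 70, against 5.25% of all genes, a share near the genome's. By list, the 9 genes with a consistent peak in the window were 3 of 10 genes that handle the EGF signal and its receptor, 3 of 15 regulators of Ras and the MAP kinase, 1 of 16 nuclear effectors, 1 of 13 genes of Notch signalling between the vulval cells and 1 of 16 genes of Wnt signalling. By mean rank their peaks were stronger than that of mpk-1, with the exception of paa-1. The gene mig-5, a Dishevelled gene of Wnt signalling, had ranks of 63, 56 and 32 in replicates 1, 2 and 3, with the summit 171 bp upstream of the gene. For sur-2, which encodes a Mediator subunit needed for vulval induction, the ranks were 309, 281 and 521, and for cnk-1, whose product helps activate Raf, they were 242, 257 and 359. For sel-10, which encodes an F-box protein that limits Notch, they were 505, 897 and 750. These 4 peaks were nearest to the start of the gene named.

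At the other 5 genes another gene's start was nearer. The peak upstream of rab-7, a GTPase of late endosomes, ranked 54, 46 and 70 in replicates 1, 2 and 3 and lay 179 bp from the start of W03C9.5, against 792 bp from rab-7. The peak of lst-4, a sorting nexin, ranked 126, 110 and 189 and was nearer to ccar-1. The peak of lin-7, which encodes a PDZ protein that places the receptor in the membrane, ranked 346, 243 and 222 and lay 33 bp from elof-1 and 299 bp from lin-7. The subunits of protein phosphatase 2A, let-92 (962, 268 and 1014) and paa-1 (1476, 1437 and 1661), had peaks nearer to ech-2 and F48E8.8. So of the 5 genes with a promoter peak, lin-7 shared it with a closer neighbour, and the other 4 were mig-5, sur-2, cnk-1 and sel-10.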

How the data were processed

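The deposited files are LIN-15B ChIP-seq peak lists on ce11, 1 for each of 3 biological replicates and 1 series-wide. Per the labels and the records deposited with the lists, they were made from alignments and a control file as input for a replicate comparison and hold background as well as peaks. Neither the aligner nor the caller is given in the sources used here. The authors' strength of a peak is a signal value on each list's own scale (highest 862 series-wide, and 284, 252 and 432 in replicates 1, 2 and 3), so it was used for ranks within a list only. The deposited q column goes below 0 in the series-wide list and was taken as a score. A score of 2 or more was held by 1460 series-wide peaks and by 538, 3083 and 2206 in replicates 1, 2 and 3. The usual peak width was 264 bp series-wide and 250, 224 and 300 bp in replicates 1, 2 and 3. The lists hold no read counts, so depth is unknown.

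Series-wide peaks served as the frame: in each replicate, the strongest peak that shared 1 bp or more was taken as the match, and the IDR was fitted over all peaks matched in a pair. It passed 1059 of 6511 for replicates 1 and 2, 1091 of 7012 for replicates 1 and 3 and 1829 of 6127 for replicates 2 and 3, and 926 in all 3 pairs. Genes and transcripts are those of Ensembl release 115, and sequences come from the RefSeq genome of the same assembly. The ce10 lists were not used. Python 3.11.15, numpy 2.4.6, scipy 1.17.1 and pandas 2.3.3 were used.

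The members, the 5 other gene lists and the motifs were chosen with earlier results of these data known, so no gene list was tested. All 10 members are described, with their strongest and consistent peaks in full. The other vulval genes named are those with a consistent peak in the window, at most 5 a list, and likeness to mpk-1 was judged by the nearest mean rank among consistent peaks. Peak lists hold no expression, so the labelled stage and tissue could not be checked against markers.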

Additional observations from a re-analysis of the deposited data

How the results depend on the processing

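Of 54 recomputed values over 17 results, 33 stayed the same by direction or within 1.5 times, 21 moved and 0 reversed. The 926 consistent peaks became 2006 with a pass in any pair and 1059 to 1829 when each replicate was left out in turn, with the highest count without replicate 1, and they were 733 to 1052 under the other settings. The 1 member with a consistent peak, mpk-1, became 0 at an IDR of 0.01, 0 when summits had to lie within 100 bp, 0 for promoters alone and 0 among the 1000 strongest peaks of every replicate. It stayed 1 with merged anchors. The count was also 1 with other window sizes and among the 2000 strongest of every replicate. There mpk-1 could not drop out, since its summit lies inside the gene and its worst rank was 1860. The count also stayed 1 at an IDR of 0.1 and without replicate 1, 2 or 3. Those settings only loosen the main one, as each pair was fitted on its own, so that outcome was fixed. Members with a listed peak numbered 9 in the series-wide list and 10, 9 and 10 in replicates 1, 2 and 3 (75.0%, 77.0%, 75.2% and 68.7% of all genes). With a q score of 2 or more they were 1, 0, 3 and 1, in the same order (11.8%, 4.78%, 19.1% and 16.3% of all genes). Among the 1000 strongest they were 0, 2, 0 and 0 (8.58%, 7.83%, 8.29% and 8.88% of all genes). Among the 5000 strongest they were 5, 5, 4 and 4 (26.7%, 25.4%, 26.3% and 26.1%). At promoters they were 6, 6, 3 and 3 (34.0%, 30.2%, 32.9% and 33.7% of all genes).

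Ranking by the q score, 1 anchor per replicate peak, and distances of 150 or 600 bp between strongest peaks were chosen after seeing the data and changed no count of members. Ranking by column 8 was planned but not run, since every value there is -1. No paired analysis was possible because there is 1 group. With 3 replicates of unknown depth, a weak site that was not matched was not detectable here and is not shown to be absent.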
